A study of Homo sapiens with 2 samples.

Results

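MicroRNA host genes are the long transcripts out of which microRNAs are cut, and those named as such carry a symbol that begins with MIR and ends with HG. They were chosen by that symbol from the RefSeq accession of each array probe, whatever the probe's signal was. The array held 77 probes for 42 such genes, out of 58201 probes and 22439 genes that could be named. H9 cells, an established human embryonic stem cell line, were grown without feeder cells on Matrigel in the medium TeSR-E8, and the study told a pair of substates apart in these cultures. It did so by the shape of the colonies and by staining for vimentin, a filament protein of mesenchymal cells, and for a keratan sulphate epitope of pluripotent cells. RNA of substate 1 cells at passage 35 went onto 1 single-colour array and RNA of substate 2 cells at passage 50 onto another. By the labels the cell line, matrix and medium were common to both groups, and they name no altered gene and no drug for either. In the study's methods the cells moved from vitronectin to Matrigel at passage 35, so time on Matrigel may differ as well. Substate, passage and time on Matrigel cannot be told apart. With 1 array per group no difference has a replicate check and no p-value is given.

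A host transcript is made by RNA polymerase II, and the nuclear enzyme DROSHA with its partner DGCR8 cuts a hairpin out of it, which DICER1 trims to the mature microRNA in the cytoplasm. The mature strand is loaded into an Argonaute protein and finds messenger RNAs mainly through its seed, the stretch of bases 2 to 8. In embryonic stem cells the LIN28 proteins hold back the maturation of the let-7 family, so the level of a host transcript and that of its mature microRNA need not follow each other. The arrays used here measured the host transcripts, and mature microRNAs were not analysed here.

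The mature sequences were taken from RefSeq (GRCh38.p14). For 39 of the 42 host genes the table held at least 1 mature microRNA inside the span of the gene, and for 33 of these it lay on the strand of the host, which gave 102 mature sequences of 59 microRNA genes. For the other 6 the strand of the host was not in the table used. Over the hosts of known strand there were 87 distinct seeds, and 6 of them occurred in more than 1 host. MIR181A2HG, whose strand was not in the table, also shared the miR-181a seed with MIR181A1HG. The seed of the let-7 family was the most shared, in 5 hosts, and these sequences are shown because the hosts with the largest mean difference in each direction, among those measured on both arrays, both carry that seed. All are written 5′ to 3′, with the seed in capitals.

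let-7a (MIR100HG, chr11:122146568-122146589, minus strand; MIRLET7BHG, chr22:46112752-46112773, plus strand): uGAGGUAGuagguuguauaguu
let-7b (MIRLET7BHG, chr22:46113691-46113712, plus strand): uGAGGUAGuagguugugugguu
let-7c (MIR99AHG, chr21:16539838-16539859, plus strand): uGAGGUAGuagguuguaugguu
miR-4458 (MIR4458HG, chr5:8460933-8460951, plus strand): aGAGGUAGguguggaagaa
miR-4500 (MIR4500HG, chr13:87618671-87618687, minus strand): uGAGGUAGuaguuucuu

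MIR100HG and MIR99AHG are paralogous hosts that each carry a member of the miR-99/100, let-7 and miR-125 families. MIR100HG also spans MIR10526, whose seed occurred in no other host. The miR-99/100 and miR-125 members are shown because both hosts have them. The miR-125b sequence is the same in both, whereas miR-100 and miR-99a have the same seed and differ beyond it.

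miR-100 (MIR100HG, chr11:122152275-122152296, minus strand): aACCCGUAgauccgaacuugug
miR-99a (MIR99AHG, chr21:16539101-16539122, plus strand): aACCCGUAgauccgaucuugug
miR-125b (MIR100HG, chr11:122099809-122099830, minus strand; MIR99AHG, chr21:16590253-16590274, plus strand): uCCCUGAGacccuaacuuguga

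Of the other hosts past the limit of size used further on, MIR4435-2HG and MIR3663HG carried microRNAs whose seeds occurred in no other host. MIR17HG, the host of the miR-17-92 cluster, carried miR-17 and miR-20a with a common seed, and miR-19a and miR-19b with another, of which the first pair is shown. MIR9-2HG and MIR9-3HG carried the same miR-9 sequence, a microRNA known from neural progenitors.

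miR-4435 (MIR4435-2HG, chr2:111321061-111321082, minus strand): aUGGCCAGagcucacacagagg
miR-3663-3p (MIR3663HG, chr10:117167695-117167717, minus strand): uGAGCACCacacaggccgggcgc
miR-17 (MIR17HG, chr13:91350618-91350640, plus strand): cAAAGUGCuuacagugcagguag
miR-20a (MIR17HG, chr13:91351072-91351094, plus strand): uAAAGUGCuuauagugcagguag
miR-9 (MIR9-2HG, chr5:88666902-88666924, minus strand; MIR9-3HG, chr15:89368032-89368054, plus strand): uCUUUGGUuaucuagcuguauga

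Processed signals are given as the scanner software wrote them, and a difference is the log2 signal of substate 2 minus that of substate 1 after the 75th percentile of each array was subtracted. That percentile was 313.7 for substate 1 and 275.4 for substate 2, so that equal processed signals on both arrays correspond to a small positive difference. A probe is called measured on an array when the software marked it as well above background there, as it did for 57.4% and 54.7% of the spots. The lowest signal of a measured probe was 14.5 for substate 1 and 15.0 for substate 2. No spot was saturated. Every host probe was printed as a single spot. Among probes printed 10 times, the spot noise of a difference between single spots had an SD of 0.069 on the log2 scale, which covers neither the cells nor the RNA. All 10 pluripotency markers on the array were measured on both arrays, and no probe of theirs was 2-fold apart. By gene, 7 of them were higher and 3 lower in substate 2, with a median of 0.18. The transcription factors POU5F1 (difference 0.27), NANOG (0.42) and SOX2 (0.26) were among the higher ones. The lower ones were TERT (-0.375), PODXL (-0.346) and SALL4 (-0.028). Of 12 neural markers 6 were measured on both arrays and all 6 were higher in substate 2, by a median of 0.75, with the radial glia gene FABP7, the neuronal genes STMN2 and MAP2 past 2-fold. Of 12 fibroblast and mesenchymal markers 6 were measured on both arrays, with a median of -0.30, and of 12 endoderm and mesoderm markers 3, with a median of 0.46. MESP1, a mesoderm gene that is not among these 3, was measured on the substate 2 array only. It read 17.2 in substate 1 and 33.3 in substate 2. That is 2.21-fold higher after scaling, taken from a substate 1 reading that was not well above background. The part of these cell type markers in the differences of the host genes was not tested. In bulk RNA, fewer cells of a type and less RNA per cell cannot be told apart.

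Many host probes stayed near background. Of the 77 probes, 33 (42.9%) were measured on both arrays, 3 (3.90%) on 1 array and 41 (53.2%) on neither. The share measured on both arrays was 51.3% over all probes, 41.1% over the 6416 other probes with a noncoding RefSeq accession, and 75.1% over the probes with a messenger RNA accession. In terms of genes, 20 of the 42 hosts had a probe measured on both arrays, 3 had a probe measured on 1 array only, and 19 had no measured probe.

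The 19 hosts without a measured probe were MIR137HG, MIR155HG, MIR181A1HG, MIR202HG, MIR217HG, MIR381HG, MIR3936HG, MIR3976HG, MIR4290HG, MIR4300HG, MIR4307HG, MIR4500HG, MIR548XHG, MIR646HG, MIR663AHG, MIR7-3HG, MIR9-2HG, MIR99AHG and MIRLET7BHG. Several of them belong to microRNAs known from differentiated cells, such as miR-155 of lymphocytes, miR-137 of neurons and miR-217 of the pancreas. Other hosts of such microRNAs were measured. MIR124-1HG, a host of the neuronal miR-124, read 1432 and 1546 in substate 1 by its 2 probes. The 41 probes that neither array measured had signals from 2.84 to 16.7 in substate 1 and from 2.96 to 16.4 in substate 2.

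Over the 33 probes measured on both arrays the differences ran from -1.57 to 2.25, with 18 higher and 15 lower in substate 2 and a median of 0.09, beside a median of 0.06 over all 29883 probes measured on both arrays. The SD of the differences was 0.70 across the host probes, 0.40 across all measured probes, and 0.44 across the 2639 other noncoding probes. These sets were not matched for signal, and probes of the same gene are not independent. By gene, 10 measured hosts were higher and 10 lower. The median over these 20 hosts was -0.01, against 0.08 over all 16001 measured genes. MIR762HG and MIR4453HG lay within the spot noise of 0.

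**Figure D1:**
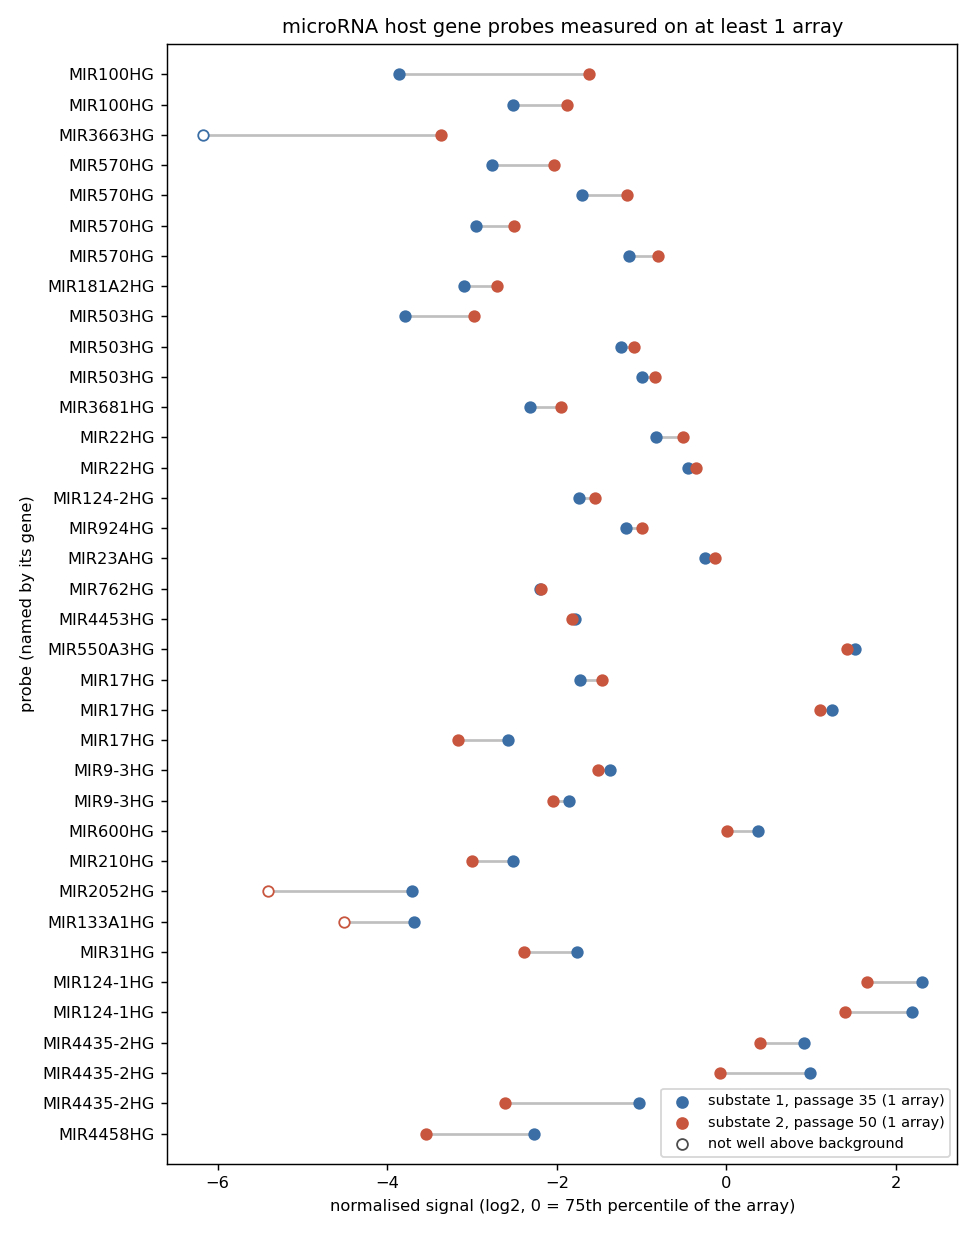
Normalised signal (log2, with 0 at the 75th percentile of the array) of the 36 host gene probes measured on at least 1 array. Each row is a probe named by its gene, with substate 1 in blue, substate 2 in red and an open circle where the probe was not well above background. The widest gap among probes measured on both arrays belongs to a MIR100HG probe, and the 3 open circles belong to MIR3663HG, MIR2052HG and MIR133A1HG.

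By a limit of 2-fold over the 36 probes measured on at least 1 array, 2 probes (5.56%) were higher in substate 2, where 1.55% of all 33166 probes so measured were. There were 3 probes (8.33%) that were 2-fold or more lower, against 1.67% of all probes. The higher probes were 1 each of MIR100HG and MIR3663HG, and the lower ones were 2 of MIR4435-2HG and 1 of MIR4458HG. The MIR3663HG probe counts only by an approximate bound. With probes measured on both arrays only, the count of higher probes was 1. Among the other noncoding RefSeq probes the shares were 1.73% higher and 2.06% lower. These host counts rest on 5 probes of 4 genes, and the difference of the shares was not tested. The sets were not matched for signal, and the measured hosts were dimmer than genes at large. The probes just inside the limit were the MIR4435-2HG probe at 2.09-fold and the MIR3663HG probe at its bound of 2.10-fold. Those just outside it were probes of MIR503HG at 1.76-fold higher, MIR124-1HG at 1.73-fold lower and MIR570HG at 1.66-fold higher.

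By the Z-score of the study's methods, which divides the difference from the mean difference by the SD over all probes, 3 of the 77 host probes reached 2 or more (3.90%, against 3.03% of all probes). A Z-score of -2 or less was reached by 5 of them (6.49%, against 3.3% of all probes). The limits correspond to 2.53-fold higher and 2.29-fold lower. Of these 8 probes 3 were measured on both arrays, namely those of MIR100HG (3.44), MIR4435-2HG (-2.60) and MIR4458HG (-2.12). The probes of MIR3663HG (4.32) and MIR2052HG (-2.80) were measured on 1 array. The probes of MIR646HG (2.58), MIR663AHG (-2.36) and MIR99AHG (-2.31) were measured on neither, so their Z-scores compare signals near background.

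**Figure D2:**
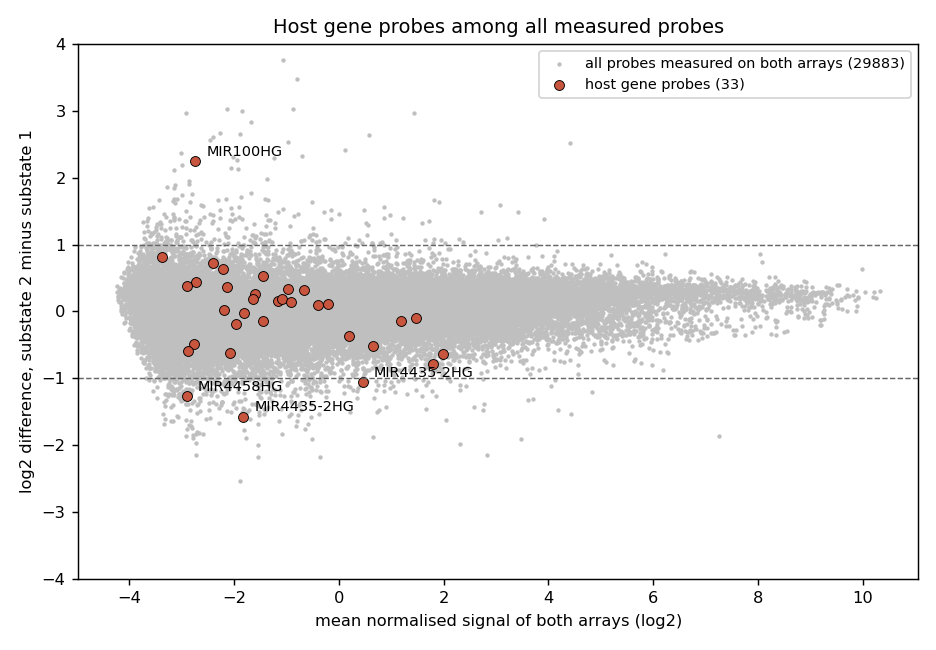
Difference between the substates (log2, substate 2 minus substate 1) against the mean normalised signal of both arrays (log2), with the 33 host gene probes in red over all 29883 probes measured on both arrays in grey, of which 1 lies outside the plotted range. Dashed lines mark 2-fold, and 4 host probes lie beyond them, those of MIR100HG, MIR4458HG and MIR4435-2HG.

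MIR100HG, the host of miR-100, let-7a-2 and miR-125b-1, had the highest mean difference of the 20 hosts measured on both arrays, at 1.44 over 2 probes. The probes were unequal in this. The first read 21.6 in substate 1 and 89.9 in substate 2, which is 4.74-fold (difference 2.25). The second read 54.7 and 74.6 (difference 0.64). The third, at 8.02 and 10.1, was measured on neither array. Both measured probes were thus higher in substate 2, by unequal amounts, although they carry the same RefSeq accession. The gap between them was larger than the spot noise of 0.069, which was taken over replicated measured probes of any brightness. The first probe was dim in substate 1, and the noise at such a signal was not examined.

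Its paralogue MIR99AHG had 5 probes, all near background, with signals of 3.07 to 11.6 in substate 1 and 3.24 to 13.2 in substate 2. The MIRLET7BHG probe read 13.0 and 12.9, and the MIR4500HG probe 4.08 and 4.13, so neither was measured. MIR4458HG, the host of miR-4458 with the same seed, had 1 measured probe, which read 65.0 in substate 1 and 23.7 in substate 2 (difference -1.27, 2.41-fold lower). Its other probe was near background at 15.8 and 16.4. Of the 12 probes for the 5 hosts of the let-7 seed, 3 were therefore measured on both arrays and 9 on neither. The hosts that were measured went opposite ways, MIR100HG being higher and MIR4458HG lower in substate 2. This seed was shown because these hosts had the largest mean difference in each direction, so their opposite order follows from that choice.

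**Figure D3:**
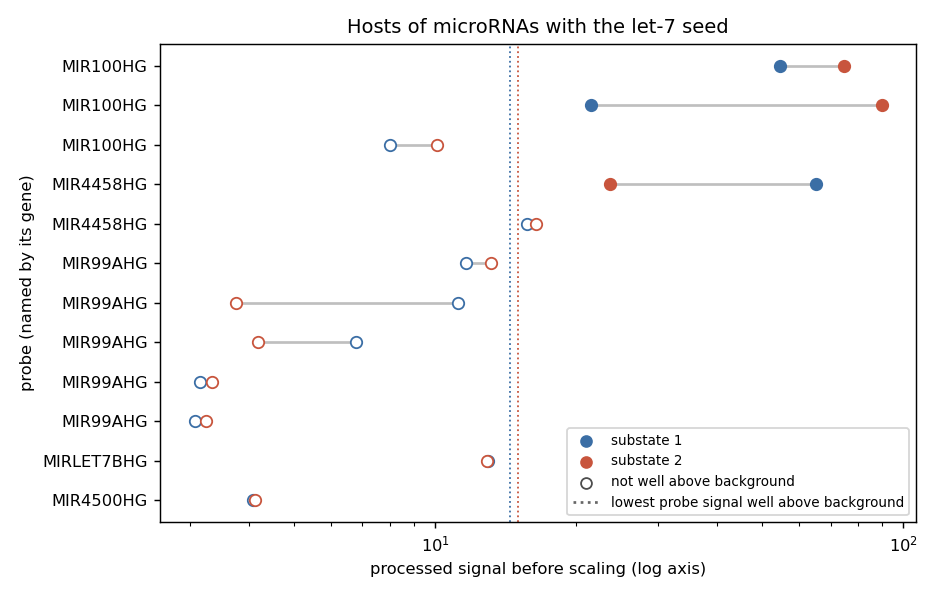
Processed signal before scaling (log axis) of the 12 probes of the 5 host genes whose microRNAs share the let-7 seed, with substate 1 in blue, substate 2 in red and open circles where a probe was not well above background. Dotted lines mark the lowest signal of a measured probe on each array, 14.5 and 15.0. Only 2 probes of MIR100HG and 1 of MIR4458HG are filled, and they lie in opposite order.

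The genes beside these hosts were read by their order in the RefSeq table. Beside MIR100HG, SORL1, which encodes a sorting receptor, was lower in substate 2, with normalised log2 signals of 5.84 and 5.22 (difference -0.62). On its other side UBASH3B, which encodes a phosphatase, read 9.92 and 23.3 and was measured on the substate 2 array only, which makes it at least 1.84-fold higher. The probe of BLID, which overlaps MIR100HG, was not measured. Beside MIR4458HG, the methionine synthase reductase gene MTRR had a mean difference of -0.13 over 2 probes of opposite sign, 0.18 and -0.44. SEMA5A, a semaphorin gene on its other side, had a difference of -0.47.

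MIR3663HG had 1 probe measured on the substate 2 array only, with 26.6 there and 4.34 on the substate 1 array. Its bound was 2.10-fold higher in substate 2. That bound uses the lowest measured signal of substate 1, 14.5, whereas unmeasured host probes read up to 16.7 there, so it is approximate. With 16.7 in place of 14.5 it would not reach 2-fold. The other MIR3663HG probe was measured on neither array. Neither were the probes of its neighbours, the homeobox gene VAX1 and the potassium channel gene KCNK18. MIR2052HG and MIR133A1HG were measured on the substate 1 array only. MIR2052HG read 24.0 there and 6.48 on the other array, which is at least 1.40-fold lower in substate 2. MIR133A1HG, a host of the muscle microRNA miR-133a, read 24.4 and 12.1, at least 1.43-fold lower.

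MIR4435-2HG, a long noncoding transcript also known in its own right from tumour studies, was lower in substate 2 by all 3 of its probes. One probe went from 153.2 to 45.1 (difference -1.57, 2.98-fold), another from 621.5 to 261.0 (difference -1.06, 2.09-fold), and the last from 593.0 to 362.2 (difference -0.52). The mean was -1.05. CYTOR is a near-identical copy of this gene at another place on the same chromosome, so that each may take up signal of the other, and the values of both are uncertain for that reason. The CYTOR probe was also lower in substate 2 (329.4 and 198.2, difference -0.55). The protein-coding neighbours of MIR4435-2HG moved less. BCL2L11, which encodes a proapoptotic BCL2 relative, had a mean difference of 0.16 over 3 probes, and ANAPC1, a subunit gene of the anaphase-promoting complex, had -0.02 over 5 probes that ran from -0.46 to 0.45.

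**Figure D4:**
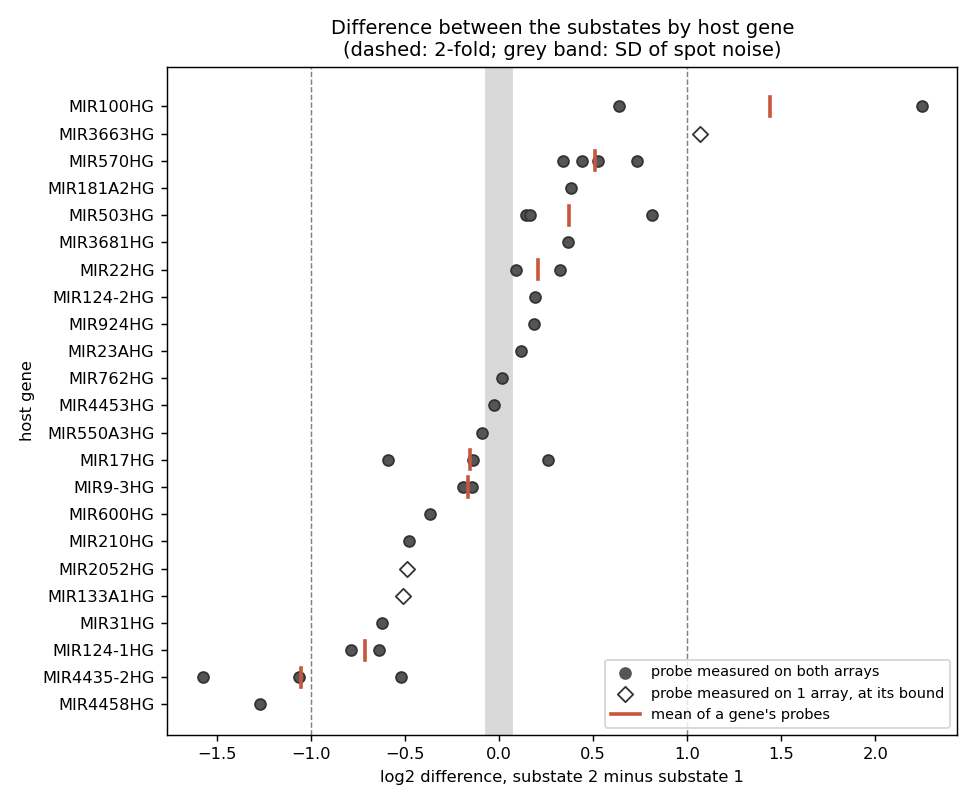
Difference between the substates (log2, substate 2 minus substate 1) for the 23 host genes with a measured probe, ordered by their mean. Filled circles are probes measured on both arrays, open diamonds are bounds of probes measured on 1 array, red ticks are means of a gene's probes, the grey band is the SD of spot noise (0.069) and dashed lines mark 2-fold. MIR17HG is the only gene with probes on both sides of 0.

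Among the hosts that were higher in substate 2 without reaching 2-fold, MIR570HG was higher by all 4 of its probes, which differed by 0.34, 0.44, 0.52 and 0.73. Their signals went, in that order, from 142.1 to 157.7, from 40.6 to 48.4, from 96.5 to 121.9 and from 46.2 to 67.3. MIR503HG, an X-linked host of miR-503, had probes that differed by 0.14, 0.16 and 0.81. The dimmest of them (22.7 and 35.0) gave the 0.81, whereas the other probes read 158.0 and 153.2 in 1 case and 132.1 and 129.8 in the other.

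MIR181A2HG, a host of miR-181a and miR-181b, read 36.8 and 42.2 (difference 0.38). MIR3681HG, with 1 of 3 probes measured, read 63.0 and 71.2 (difference 0.36). MIR22HG, the host of miR-22, read 230.0 and 214.7 by one probe and 176.5 and 193.6 by the other (differences 0.09 and 0.32). All of these were higher in substate 2 after scaling.

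The differences of the next hosts were small. MIR924HG read 138.4 and 138.0 (difference 0.18), and MIR124-2HG read 94.2 on both arrays (difference 0.19). MIR23AHG, the host of the miR-23a, miR-27a and miR-24-2 cluster, read 262.5 and 249.9 (difference 0.12). MIR762HG and MIR4453HG differed by 0.02 and -0.03, with signals of 68.4 and 60.7 for the former and 90.7 and 78.1 for the latter. MIR550A3HG read 898.5 and 739.8 (difference -0.09).

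The host of the miR-17-92 cluster, whose microRNAs are known to promote proliferation, was the only host with probes of both signs among those measured on both arrays. The 3 MIR17HG probes read 95.1 and 99.9 (difference 0.26), 52.4 and 30.6 (-0.59), and 744.5 and 594.4 (-0.14), with a mean of -0.16. Its probes carry the RefSeq accessions of different transcripts, 1 probe on the first and 2 on the second. The array also held probes on the microRNA genes inside the cluster. The MIR92A1 probe read 220.6 and 118.6 (difference -0.71). The MIR17 probe was measured on the substate 1 array only, at 15.1 against 4.93, too close to the lowest measured signal for a bound. MIR19A and MIR19B1 were measured on neither array.

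The measured hosts of neural microRNAs did not all go the same way. MIR124-1HG, a host of the neuronal miR-124, was lower in substate 2 by both of its probes, which read 1546 and 870.9 (difference -0.64) and 1432 and 728.7 (difference -0.79). MIR124-2HG differed by only 0.19. MIR9-3HG differed by -0.19 and -0.15 over the 2 of its 4 probes that were measured (86.6 and 66.6, and 121.2 and 96.2). All 4 probes of MIR9-2HG, and the probe of MIR137HG, were near background on both arrays.

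The remaining hosts were lower in substate 2. MIR31HG, the host of miR-31, read 92.3 and 52.6 (difference -0.62) by 1 of its 3 probes, the others being near background. MIR210HG, the host of the hypoxia-induced miR-210, read 54.7 and 34.4 (difference -0.48). The MIR210 gene had a probe of its own, measured on the substate 1 array only, at 21.3 against 11.5, which is at least 1.24-fold lower. MIR600HG read 406.4 and 276.8 (difference -0.37).

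Probes of a host gave less even differences than probes of genes at large. In the 8 hosts with 2 or more measured probes there were 19 pairs of probes, whose differences lay a median of 0.39 apart, with a 90th percentile of 0.89. Over all 4236 genes with such pairs, the median gap of 6685 pairs was 0.16 and the 90th percentile was 0.52. Pairs of probes within a gene are not independent, and this was not tested. The measured hosts were also dimmer. Their median normalised log2 signal in substate 1 was -1.75, against 0.60 over all genes measured on both arrays. The pairs were not matched for signal.

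The genes that make and use microRNAs were brighter than the measured hosts. Their median normalised log2 signal in substate 1 was 2.28, against -1.75 for the hosts, and the lists were not matched for signal. Of 30 genes of the machinery, all measured on both arrays, 22 were higher and 8 lower in substate 2, from -0.50 to 0.45, with a median of 0.11 beside 0.08 over all genes, and none had a probe past 2-fold. Over all 16001 measured genes 9563 were higher and 6438 lower. In the nucleus, DROSHA differed by 0.07 and DGCR8 by 0.21. The export receptor XPO5 differed by 0.10, DICER1 by 0.10 and the Argonaute protein AGO2, which cleaves targets, by 0.03. LIN28A and LIN28B, which block let-7 maturation, differed by 0.18 and 0.10. The differences furthest upward were those of AGO1 (0.45), the RNA-binding protein KHSRP (0.42) and GEMIN4 (0.39). Those furthest downward were those of TUT7 (-0.50) and TUT4 (-0.40), which add uridines to let-7 precursors, and of TNRC6A (-0.27), a partner of Argonaute.

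Textbook host genes with other names include coding genes and long noncoding RNAs. Of 52 on the array, 48 were measured on both arrays, 28 higher and 20 lower in substate 2, with a median of 0.06 and none with a probe past 2-fold. The imprinted RNA H19, the host of miR-675, was higher by both of its probes (46.3 and 70.4, and 67.1 and 98.1, mean difference 0.76). The glutamate receptor gene GRM8, a host of miR-592, differed by 0.86 and the imprinted RNA MEG3 by 0.56, the mean of probes at 0.19 and 0.92. A further MEG3 probe went the other way, as it was measured on the substate 1 array only, at 26.0 against 11.4, which is at least 1.52-fold lower in substate 2. At the other end, LINC00472 differed by -0.69, the axon guidance gene SLIT2, a host of miR-218, by -0.56 and CYTOR by -0.55.

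Genes known as targets of the let-7 or miR-125 families were examined beside the hosts of these families. Of 25, 24 were measured on both arrays, and 21 were higher and 3 lower in substate 2, from -0.65 to 0.52, with a median of 0.20 beside 0.08 over all genes, of which 9563 of 16001 were higher. The remaining gene, CDKN1A, which encodes a cell cycle inhibitor, was measured on the substate 1 array only and was at least 1.42-fold lower. None had a probe past 2-fold. The 3 furthest upward were the cyclin gene CCND1 (0.52), HRAS (0.45), which encodes a RAS protein, and the phosphatase gene CDC25A (0.36). The lower ones were the proapoptotic gene BMF (-0.65), MYC (-0.40), which encodes a growth-promoting transcription factor, and IGF2BP3 (-0.01). The median of this list moved to 0.11 after quantile normalisation and to 0.10 after loess centring, when the medians over all genes were 0.05 and 0.03.

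**Figure D5:**
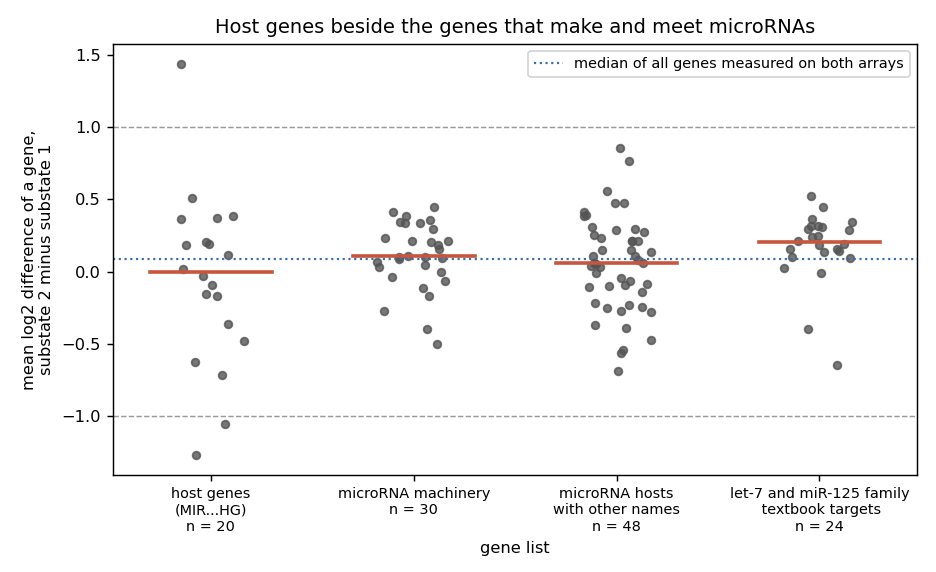
Mean difference per gene (log2, substate 2 minus substate 1) for host genes, microRNA machinery, hosts with other names and let-7 or miR-125 targets, as points for genes measured on both arrays (n = 20, 30, 48 and 24), spread sideways only for legibility. Red bars are medians (-0.01, 0.11, 0.06 and 0.20), the dotted line is the median over all measured genes (0.08) and dashed lines mark 2-fold, which gene means pass only among the host genes.

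In 1 alternative the median spot signal with normexp correction and an offset of 50 replaced the processed signal. None of the 36 host probes measured on at least 1 array then passed 2-fold in either direction. The share of all probes past 2-fold under this setting was not counted, so the loss cannot be read as particular to the hosts. The input signal, the correction and the offset all change in this alternative, and which of them moved the count was not tested. The mean differences were then 0.66 for MIR100HG, -0.70 for MIR4435-2HG and -0.33 for MIR4458HG. Under median centring, quantile normalisation and loess centring they stayed between 1.48 and 1.49, between -1.06 and -1.01, and between -1.23 and -1.22. Across these 4 alternatives 18 of the 20 measured hosts kept the sign of their difference, the exceptions being MIR210HG, which came to 0.04 under normexp, and MIR4453HG, which was above 0 under all 4.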

How the data were processed

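Labelled RNA of substate 1 and substate 2 H9 cells was hybridised to 1 Agilent single-colour array each. The authors deposited scanner output with the processed intensity of each spot, background-subtracted per the file headers by Feature Extraction 11.5.1.1 (protocol GE1_1105_Oct12, annotation on hg19). They also deposited a matrix of log2 values, which differed from the log2 values computed here by a constant of 0.006 and 0.005 per array, for 100% of 58201 probes within 0.01. Its scale and direction are thereby known.

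After a floor of 1, intensities without outlier spots were turned into log2 values, averaged per probe and centred on the 75th percentile of the array's non-control probes. A probe well above background on 1 array was given as a bound against the other array, where it was dim, at the higher of the lowest measured signal there and the dim probe's own. Where the dim probe's own signal was the higher, as for MESP1, the value is the plain difference. Unmeasured host probes read up to 16.7 in substate 1 and 16.4 in substate 2, above the lowest measured signals. Folds given as at least a value are therefore approximate. A probe on neither array got no fold. Gene values are means over probes measured on both arrays. Unversioned accessions named 31104 probes (53.4%) through a RefSeq gene table (GRCh38.p14). That table also gave the neighbours and the spans of the hosts in which mature sequences were sought. Every host with a measured probe is named with its values. Selected machinery genes were always named, along with the 3 largest differences each way in each pathway list. The members and lists were chosen with earlier results of these data known. The calculation was tested on simulated data. With 1 array per group the number of arrays limits the precision, and no test was possible. Alternatives used median centring, quantile normalisation, loess (span 0.3), normexp in limma 3.58.1 (R 4.3.3), other filters and other limits. Python 3.11.15, pandas 2.3.3 and numpy 2.4.6 were used.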

Additional observations from a re-analysis of the deposited data

How the results depend on the processing

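The count of host probes 2-fold or more higher (2) became 0 with normexp, 6 when spots positive and significant replaced those well above background, 1 with probes measured on both arrays only, and 5 at a 1.5-fold limit. The count 2-fold or more lower (3) became 0, 6 and 7 under normexp, the positive and significant filter and the 1.5-fold limit. The 8 host probes past the Z-score limits became 18 with an SD from the median absolute deviation and 5 with probes measured on both arrays only, for which the mean and SD were taken over those probes alone. These are counts of host probes alone. The shares over all probes were not counted under these settings, so the moves cannot be read as particular to the hosts. The median over host genes moved from -0.01 to 0.09 under normexp, and that over let-7 and miR-125 targets from 0.20 to 0.11 (quantile) and 0.10 (loess). Of 80 values of single host genes 15 moved by more than the spot noise, 14 of them under normexp. Normexp was run on the median spot signal in place of the processed signal, a choice made after seeing the data, since the files used hold no mean signal. For host genes with other names the median fell to -0.003 under loess and -0.002 under normexp. Membership by the array's own gene names was not run, since the files used hold no such column. No paired analysis was possible because each group has 1 array. Host probes were mostly dim, with median signals of 13.0 and 12.9, near the lowest measured signals.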
